A study of Mus musculus with 2 samples.

Results

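Genes rich in nonsense-mediated decay (NMD) transcripts are described here in the nucleoplasmic RNA of mouse macrophages. An NMD transcript is an annotated RNA that the annotation marks for decay, in general because its stop codon lies well before the last exon junction. The members were chosen by measured values, so the values that chose them are given as a description with no test. A gene had to have a transcript annotated as protein coding and a TPM (transcript level scaled to library and length) of at least 5 in both libraries. At least 30% of its summed transcript TPM had to lie in NMD transcripts in both libraries of the transcript table derived from alignments. Genes with 50% or more in retained-intron transcripts in either library were left out, as were CLK, SR, TRA2, HNRNP, RBM, zinc finger (Zfp) and TRIM genes by symbol. Of 55450 genes with a transcript type, 5462 passed the first 2 conditions, and 1864 of these had an annotated NMD transcript. The share reached 30% in both libraries in 113 genes, which is 2.07% of the 5462 and 6.06% of the 1864. The symbol rule removed 6 of them and the retained-intron rule another 6, which left 101 members.

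The RNA came from bone marrow-derived macrophages of the inbred mouse strain C57BL/6J. All cells received Lipid A, the part of bacterial lipopolysaccharide that Toll-like receptor 4 (TLR4) senses, at 100 ng/ml for 12 h, were washed out for 12 h, and received 100 ng/ml Lipid A again for 30 min. After removal of ribosomal RNA, nucleoplasmic RNA was made into 2 libraries, replicate 1 from 1 µg and replicate 2 from 500 ng. The labels list both under 1 donor identifier with separate biosamples. The labels do not say if mice or cultures were separate, and part of the spread may thus be technical. There is 1 group and no untreated or whole-cell sample, and thus no comparison between conditions and no p-value.

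NMD is a surveillance pathway that degrades RNAs whose stop codon lies too far upstream of the end of the message. In the usual model a translating ribosome stops at such a codon while an exon junction complex still sits downstream, and the UPF and SMG proteins then commit the RNA to decay. Because translation is needed, the decay takes place mostly in the cytoplasm, while the RNAs themselves are made by splicing in the nucleus. Cells also use alternative splicing into such forms to set the level of a gene, most famously for RNA-binding proteins.

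The sequences below show how the leading NMD transcript of 9 members parts from the leading coding transcript of the same gene. The leading transcript of a type is the one with the highest mean TPM. These members were picked, after their values were seen, to show each kind of splicing difference in a well-expressed or extreme member. Each line runs 5′ to 3′ along the coding sequence and starts with the last 12 bases both transcripts share. The NMD line goes on to its stop codon, in capitals, and the coding line shows the next 30 coding bases. The sequences are those of the GENCODE M21 transcripts, on build GRCm38.
Ddx5-208, NMD, kept intron, stop at chr11:106783954-106783956, minus strand: ccagagggctaggtTAG
Ddx5-201, coding: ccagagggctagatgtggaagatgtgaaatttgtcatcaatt
Oas1g-203, NMD, later splice donor, stop at chr5:120881837-120881839, minus strand: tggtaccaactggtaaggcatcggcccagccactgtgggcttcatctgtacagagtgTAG
Oas1g-201, coding: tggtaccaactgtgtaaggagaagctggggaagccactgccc
Khnyn-203, NMD, later splice donor, stop at chr14:55894101-55894103, plus strand: catcagagagcggTGA
Khnyn-201, coding: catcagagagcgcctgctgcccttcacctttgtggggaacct
Ctsh-202, NMD, skipped exon, stop at chr9:90062723-90062725, plus strand: tggatgaaacagtggcatTGA
Ctsh-201, coding: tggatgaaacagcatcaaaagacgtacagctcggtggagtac
Gbp6-203, NMD, skipped exon, stop at chr5:105280560-105280562, minus strand: gacagaatcacgggTGA
Gbp6-201, coding: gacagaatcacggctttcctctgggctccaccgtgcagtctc
Il4ra-205, NMD, extra exon, stop at chr7:125571951-125571953, plus strand: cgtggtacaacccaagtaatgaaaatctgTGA
Il4ra-201, coding: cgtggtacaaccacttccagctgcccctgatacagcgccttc
Cdipt-207, NMD, earlier splice acceptor, stop at chr7:126978879-126978881, plus strand: gcatctgcacagttcctccgctcagTGA
Cdipt-201, coding: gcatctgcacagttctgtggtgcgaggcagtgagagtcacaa
Bak1-204, NMD, later splice acceptor, stop at chr17:27022538-27022540, minus strand: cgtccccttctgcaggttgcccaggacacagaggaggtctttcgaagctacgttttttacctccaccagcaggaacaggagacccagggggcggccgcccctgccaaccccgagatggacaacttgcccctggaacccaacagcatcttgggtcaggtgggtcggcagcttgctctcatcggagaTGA
Bak1-203, coding: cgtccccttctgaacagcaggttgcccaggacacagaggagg
Uggt1-209, NMD, earlier splice donor, stop at chr1:36210053-36210055, minus strand: gatgatactcaggaactgaggTAA
Uggt1-201, coding: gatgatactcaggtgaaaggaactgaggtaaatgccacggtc

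In Khnyn the reading frame closed within 4 bases of the parting and in Gbp6 within 5, while in Bak1 it ran on for 176 bases. Bak1-204 lost only 5 bases at the splice acceptor and Uggt1-209 only 7 at the donor. Ddx5-208 kept a whole intron of 1265 bases, and its frame closed 5 bases into it.

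The gene tables held 23845991 counts in replicate 1 and 20675294 in replicate 2. Small structural RNAs (Rn7sk, Rpph1, Rmrp and the Rn7s genes) took 62.0% of TPM in replicate 1 and 50.2% in replicate 2, and mitochondrial genes 2.91% and 6.91% of counts. All 10 macrophage markers examined reached a TPM of 1 in each library, with sums of 2819 and 4550 TPM. The marker lists of 7 other cell types (T and NK, B, neutrophil, dendritic, erythroid, mast and fibroblast) summed to between 0.06 and 3.71 TPM in a library, and the endothelial list to 24.96 and 19.72. Of the 7 T and NK cell markers, 5 were at 0 in both libraries. The part of these RNAs in the results was not tested.

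Across the 101 members the NMD share ran from 30.2% to 89.3% in replicate 1, with a median of 45.3%, and from 30.7% to 93.3% in replicate 2, with a median of 47.2%. The other 1763 genes with an NMD transcript had medians of 3.45% and 2.96%. The share was 50% or more in both libraries in 27 members and 70% or more in 4, namely Bak1, Pcnp, Khnyn and Atrip. Coding transcripts held a median of 32.6% of member TPM in replicate 1 and 33.9% in replicate 2. The NMD share exceeded the coding share in both libraries in 61 members. In 68 members the single most abundant transcript was an NMD transcript in both libraries, against 4.56% of all genes with an NMD transcript. These medians and counts follow from the rule and are no test of it.

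**Figure D1:**
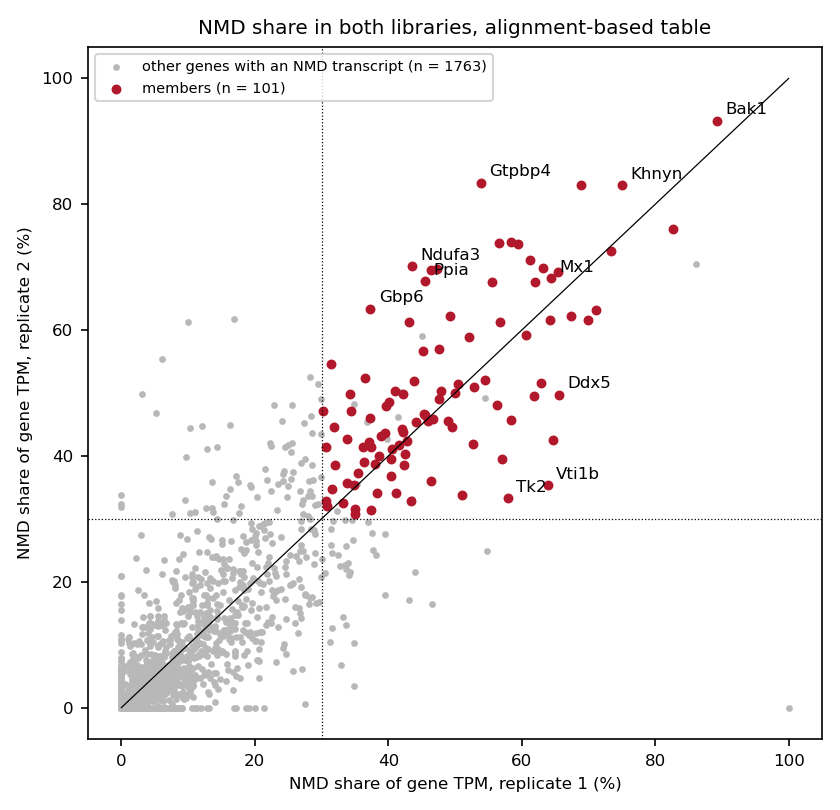
NMD share of gene TPM (percent) in replicate 1 on the x axis and replicate 2 on the y axis for the 101 members (red) and the 1763 other genes with an NMD transcript (grey), with dotted lines at 30% and a diagonal of equal share. Bak1 sits highest at 89.3% and 93.3%, and Vti1b and Gtpbp4 lie far from the diagonal on either side.

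The 3 members nearest the threshold from above were Wbp4 (30.2% in replicate 1 and 47.2% in replicate 2), N4bp2l1 (30.6% and 32.8%) and Eif2a (30.7% and 41.5%). Among genes that no exclusion removes, the 3 nearest from below were Tmem234 (34.6% and 29.8%), Akap8 (33.5% and 29.8%) and Ppp1cb (29.4% and 51.5%). Just above and just below the line the values overlap, so membership at the edge turns on small differences.

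Shares are those of the alignment-based table unless said otherwise. A second table, called read-based here, holds another estimate from the same reads and is no independent replicate. The highest shares belonged to genes of very different roles. Bak1 encodes a pore-forming executioner of mitochondrial apoptosis. Its TPM was 10.2 in replicate 1 and 16.7 in replicate 2, and NMD transcripts held 89.3% and 93.3% of it. Pcnp, a nuclear protein gene, had 82.6% and 76.1%. Khnyn, whose protein works with the antiviral factor ZAP against CpG-rich viral RNA, had 75.0% and 83.0%, with only 7.12% and 1.88% left in coding transcripts. Zdhhc3, which encodes a palmitoyltransferase of the Golgi, had 68.9% and 83.1%. Atrip, the partner of the DNA damage kinase ATR, had 73.4% and 72.5%, but its gene overlaps Trex1. Some leading NMD transcripts have many bases that lie in no coding transcript of the gene. These were 2054 of 5882 in Khnyn-203, 4463 of 5380 in Zdhhc3-207 and 1355 of 4248 in Atrip-204. Bak1-204 and Pcnp-205 had 0 such bases. Reads from such bases cannot be credited to a coding transcript, and their part in the shares was not tested. Zmym5 had 65.5% and 69.3% (read-based 37.3% and 27.5%), and Tmf1, which encodes a Golgi protein, 59.4% and 73.7%. Mill2, a relative of the MHC class I genes, had 63.3% and 69.9%, but 22.3% and 29.5% in the read-based table.

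Among the roles given, immune genes were the largest group, with 16 of 101 members, while 18 members were not grouped. Only members were given roles, so there is no background to read this number against. Roles were assigned by hand after the values were seen and cover 83 members and no test was made on them. The median NMD share of the immune members was 53.3% in replicate 1 and 61.9% in replicate 2, and an NMD transcript led in both libraries in 14 of them. The read-based table gave lower medians of 35.3% and 48.5%, with 12 of 16 at 30% or more in both libraries. They also held 5 of the 10 members with the highest TPM.

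Mx1, an interferon-induced antiviral GTPase, was the most abundant member, with a TPM of 656 in replicate 1 and 359 in replicate 2. C57BL/6 mice are known to carry an Mx1 allele that has lost coding exons and makes no functional protein. NMD transcripts held 64.5% and 68.3% of Mx1 TPM, against 16.9% and 18.5% in coding transcripts. Mx1-205 alone had a TPM of 327 and 197, and the leading coding transcript Mx1-202 had 98.1 and 61.2. Mx1-205 differs from Mx1-202 by 278 extra exon bases at the parting, and its stop codon lies in exon 9 of 11 at chr16:97451528-97451530. Mx1-205 has 0 bases that lie in no coding transcript of the gene, so these 278 bases also occur in other coding transcripts. The NMD form was the more abundant one in both libraries of this table. The read-based table gave Mx1 an NMD share of only 32.3% and 43.7%, with a retained-intron transcript in the lead in replicate 1.

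Oas1g, a member of the oligoadenylate synthetase family that senses double-stranded RNA, had a TPM of 110 and 68.7. Its NMD share was 62.9% in replicate 1 and 51.6% in replicate 2, and the coding share 8.80% and 13.8%. Gbp6 and Gbp4 encode guanylate binding proteins, interferon-induced GTPases that attack membranes of intracellular pathogens. Gbp6 had a TPM of 116 and 99.1 with a share of 37.3% and 63.4%, so replicate 2 was higher by 26.1 percentage points. Gbp4 had a TPM of 57.5 and 49.9 with a share of 49.3% and 62.3%. Gbp4 overlaps Gbp9 and Gbp8 in the annotation and Gbp6 overlaps Gm43302, and reads of Mx1, Oas1g and the GBP genes may be shared with close relatives, so their values are uncertain to that extent.

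Ctsh encodes cathepsin H, a lysosomal protease. Its TPM was 110 in replicate 1 and 169 in replicate 2, and the NMD share 55.6% and 67.7%. Its only annotated NMD transcript, Ctsh-202, skips an exon of 106 bases and reads 123 coding bases in place of 999. Il4ra, the receptor chain shared by interleukin 4 and interleukin 13, had a TPM of 41.6 and 42.2 and a share of 50.4% and 51.4%, so both libraries gave nearly the same value. Il4ra-205 carries an extra exon of 114 bases in which its stop codon lies. The type is the annotation's label, and whether this form is decayed or translated was not measured. Cd300c2, a myeloid surface receptor, had a share of 69.97% and 61.56%. H2-Eb1, the beta chain of the class II molecule I-E, had 46.3% and 69.5% (read-based 24.4% and 53.6%). Sh2b3, the adaptor LNK that dampens cytokine signalling, had 71.2% and 63.2%. Ifi35, an interferon-induced protein gene, had 44.1% and 45.4%, and Nlrp1b, an inflammasome sensor, 45.3% and 46.7%. Sh2b3-205 keeps an 80-base intron, and Ifi35-203 skips 148 bases.

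**Figure D2:**
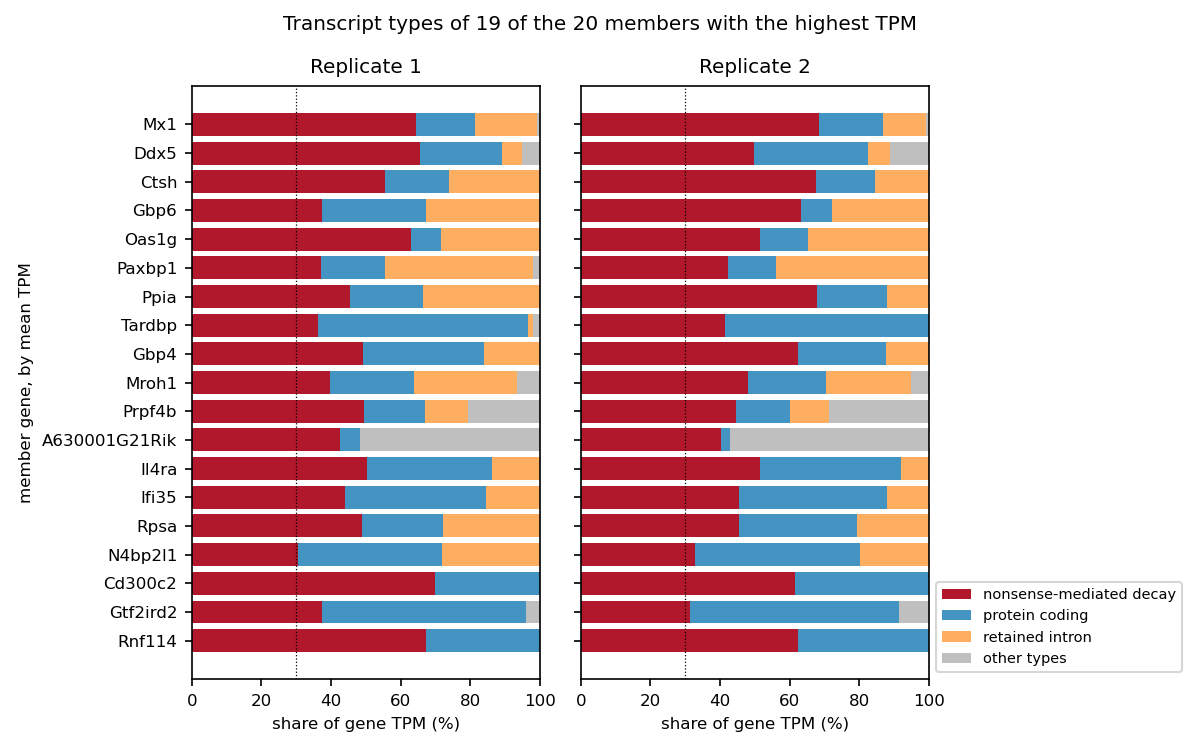
Share of gene TPM (percent, x axis) in NMD, protein coding, retained-intron and other transcript types for the 20 members with the highest mean TPM, 1 of them left out (y axis), replicate 1 on the left and replicate 2 on the right, with a dotted line at 30%. NMD transcripts (red) fill 64.5% and 68.3% of Mx1, while in Tardbp coding transcripts are the larger part in both libraries.

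RNA processing genes made up 13 members, with a median share of 41.0% in replicate 1 and 47.2% in replicate 2. Ddx5, a DEAD-box helicase that acts in splicing and transcription, had a TPM of 312 and 342. Its NMD share was 65.6% in replicate 1 and 49.7% in replicate 2, and the coding share 23.6% and 32.8%. Ddx5-208 had a TPM of 205 and 137, against 64.9 and 102 for the coding transcript Ddx5-201. Its credibility bounds, which describe estimation within a library and can lie to 1 side of the TPM itself, were 196 to 202 and 129 to 136.

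Tardbp encodes TDP-43, an RNA-binding protein known to lower its own level through processing of its own RNA. It had 10 annotated NMD transcripts, a TPM of 62.2 and 60.1 and an NMD share of 36.2% and 41.4%, below its coding share of 60.5% and 58.6%. Its share was only 16.5% and 17.3% when expected counts were used in place of TPM, as counts are not divided by transcript length. Paxbp1 had a TPM of 74.6 and 64.5 and a share of 37.1% and 42.2%. Prpf4b, a splicing kinase gene, had 49.6% and 44.6%. Prpf4b-208 has the same reading frame as Prpf4b-201 up to the same stop codon. Snapc3, a subunit of the complex that starts snRNA transcription, had 52.1% and 59.0%. Clasrp, which encodes an SR-like protein that binds CLK4, had 47.6% and 49.1%, with 3.55% and 5.31% in coding transcripts.

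In the alignment-based table, the 8 members of the translation group all had an NMD transcript in the lead in both libraries. In the read-based table this held for 4 of them, and 3 of 8 had a share of 30% or more in both libraries. Rpl12 encodes a protein of the large ribosomal subunit and Rpsa one of the small subunit. Rpl12, a classical case of NMD-coupled splicing, had a TPM of 17.8 in replicate 1 and 20.3 in replicate 2 and a share of 56.7% and 73.9%, but 23.8% and 29.3% in the read-based table. Rpl12-201 uses a donor 121 bases further on. Rpsa had a share of 48.9% and 45.6%, and the elongation factor gene Eef1b2 48.0% and 50.4%. Gtpbp4, a GTPase of ribosome assembly, had 53.9% and 83.4%, the largest gap between the libraries of any member. Ribosomal protein genes and Ppia, the gene of cyclophilin A, have many processed pseudogenes, and Rpsa overlaps Gm26448, so their counts are uncertain.

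Ppia had a TPM of 57.8 and 71.8 and a share of 45.5% and 67.7%. Ppia-201 gains 5 bases at a donor, and its coding part is 120 bases long against 492 in Ppia-202.

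Chromatin, transcription and DNA repair genes numbered 12, with median shares of 40.6% and 42.7%. Their read-based medians were 23.9% and 28.7%, and 5 of 12 had 30% or more in both libraries of that table. Elk4, an ETS factor that partners with SRF, had 38.6% and 40.1% (read-based 19.5% and 26.0%). Polb, the polymerase of base excision repair, had 41.6% and 41.7%. In its NMD transcript Polb-202, 2722 of 3354 bases lie in introns of the coding transcript. Sirt1, an NAD-dependent deacetylase, had 47.3% and 69.8% (read-based 14.5% and 31.5%). Smarca2, an ATPase of the SWI/SNF remodelling complex, had 39.6% and 43.7% (read-based 25.1% and 24.7%). Membrane traffic and secretion gave 11 members with medians of 42.1% and 41.5%. The read-based medians of this group were 31.2% and 37.9%, and 6 of 11 had 30% or more in both libraries of that table. Within the group Gga1, an adaptor of Golgi sorting, had 46.8% and 45.9% (read-based 16.5% and 22.1%). Uggt1, the folding sensor of the endoplasmic reticulum, had 42.2% and 43.8% (read-based 25.8% and 27.2%). Vti1b, a SNARE gene, had 63.9% and 35.3% (read-based 70.8% and 57.4%).

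Mitochondrial genes numbered 6, with medians of 45.6% and 54.0%. The complex I subunit gene Ndufa3 had a TPM of 10.92 and 33.04 and a share of 43.5% and 70.2%. Its NMD transcript Ndufa3-204 is only 343 bases long, with 21.87 and 81.98 expected counts, and by expected counts the share was 22.1% and 48.8%. Atp5f1, a subunit gene of ATP synthase, had 52.9% and 50.9%. Tk2, the mitochondrial thymidine kinase gene, had 57.9% and 33.3%. Ubiquitin and SUMO genes numbered 5: Rnf114, Rnf14, Senp2, Rnf41 and Ube3b. Senp2, a SUMO protease gene, had 61.3% and 71.1%, and the ubiquitin ligase gene Rnf114 67.4% and 62.3%. The 8 metabolism and redox members had medians of 43.5% and 46.3%. Cdipt, which makes phosphatidylinositol, had 62.1% and 67.6%, and Prdx6, a peroxiredoxin gene, 54.4% and 52.1%.

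**Figure D3:**
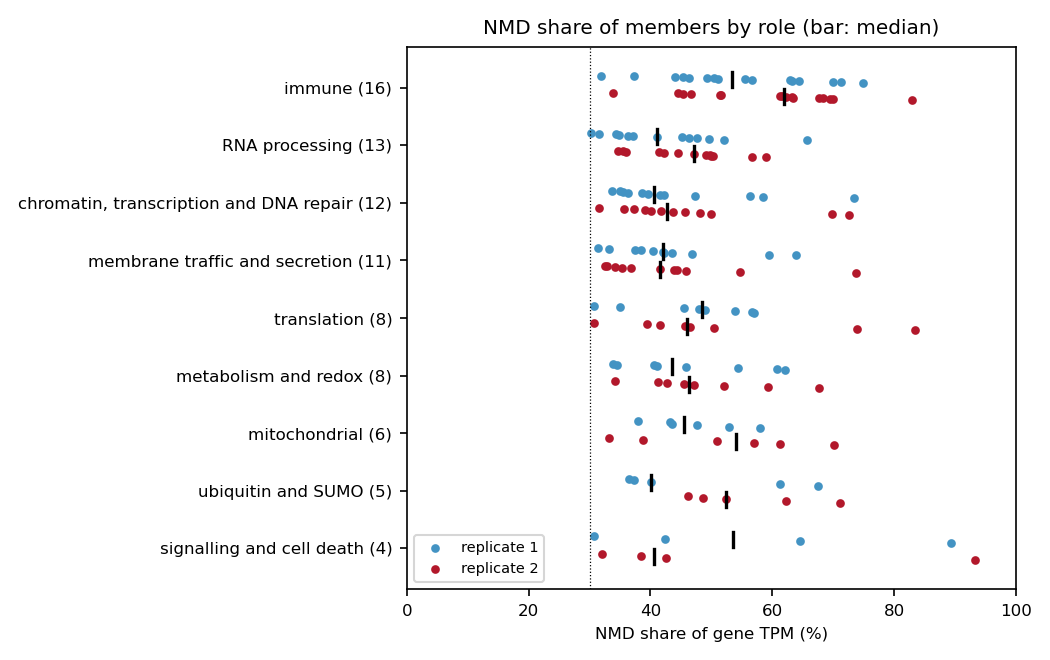
NMD share of gene TPM (percent, x axis) of each member by role (y axis, number of members in parentheses), with replicate 1 in blue, replicate 2 in red and a black bar at each median. The immune group has medians of 53.3% and 61.9%, and all groups overlap one another.

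The annotated structures show how the leading NMD transcript of each member differs from its leading coding transcript. Both started at the same codon in 73 of 101 members, against 59.6% of all genes with an NMD transcript. The first difference along the coding sequence was a skipped exon in 21 of these 73 (28.8%), an extra exon in 11 (15.1%), a later donor in 11 (15.1%) and an earlier donor in 7 (9.59%). A later acceptor was found in 9 (12.3%), an earlier acceptor in 6 (8.22%) and a kept intron in 3 (4.11%), which were Ddx5, Sh2b3 and Tmem208. In 4 (5.48%) the frame was the same to the stop. In Ttpal the coding transcript ended before any difference. Among the 1038 other genes of this kind, skipped exons made up 33.3%, extra exons 24.2%, later donors 11.1% and kept introns 1.64%. The order of the classes was thus similar, with extra exons a smaller part among members than among other genes. These shares were not tested.

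**Figure D4:**
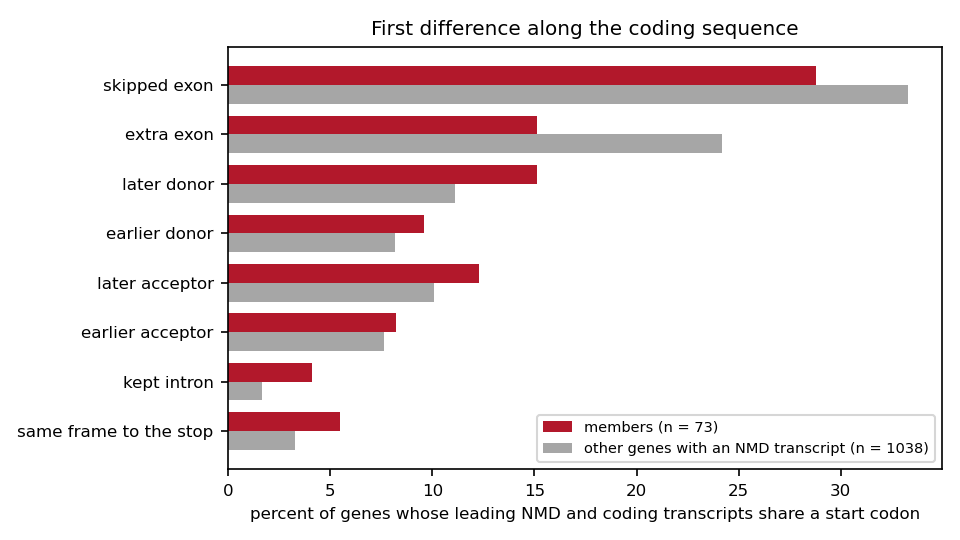
Percent of genes (x axis) by the first difference between leading NMD and leading coding transcript along the coding sequence (y axis), for 73 members (red) and 1038 other genes (grey) whose 2 transcripts share a start codon. Skipped exons are the most frequent class in both, with 28.8% and 33.3%.

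Where both transcripts met again after the difference, the net change was not a multiple of 3 bases in 57 of 67 members, against 807 of 966 other genes. A change of 10 bases or fewer in all was found in 8 of 67 members and 71 of 966 other genes. The 8 members were Bak1, Ppia, Gga1, Uggt1, Zdhhc3, Clasrp, Scaf11 and Ndufa3. Scaf11-202 lost 2 bases and Gga1-203 lost 4. Reads that span such sites differ by a few bases only between the NMD and the coding form.

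The stop codon of the leading NMD transcript lay more than 50 bases upstream of the last exon junction in all 101 members and in 1749 of the 1763 other genes with an NMD transcript. The annotation gives this type by the place of the stop before later exon junctions, so the distance comes with the label and is no result about members. The stop codon fell in bases that the coding transcript also contains, as a stop of another frame or position, in 59 members (58.4%) and 56.7% of other genes. In 15 members (14.9%) it lay in an extra exon, as in Il4ra, and in another 15 (14.9%) in an extended exon or kept intron, as in Ddx5 and Oas1g. For other genes these classes made up 21.2% and 12.3%. In 7 members (6.93%), among them Prpf4b, Elk4 and Crebzf, and in 4.03% of other genes the stop codon was that of the coding transcript itself. The coding part was less than 50% as long as that of the leading coding transcript in 63 members. Its median length was 363 bases, against 1101 for the leading coding transcripts. For the other genes with an NMD transcript these medians were 300 and 1527 bases, so a shortened coding part is not particular to members. Of the members' leading coding transcripts, 5 have no annotated stop codon and are incomplete models.

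The leading NMD transcripts of members were long. Their median length was 2326 bases, against 1239 for other genes, and the part after the stop codon had a median of 1549 bases, against 656.5. The distance from the stop to the last junction was alike, with medians of 358 and 348. Why the lengths differ was not tested. In 45 of 101 members the leading NMD transcript has bases in introns of all coding transcripts, against 48.3% of all genes with an NMD transcript. Unspliced RNA also holds intron bases, and its part in the shares was not tested.

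The read-based table gave lower values for most members. The median NMD share was 36.7% in replicate 1 and 42.3% in replicate 2. It was below the alignment-based share in both libraries in 72 members and above it in both in 18. In 63 of 101 members it was 30% or more in both libraries, against 6.12% of the 1864 genes. In 21 members it was under 30% in both. An NMD transcript led in both libraries of the read-based table in 46 members, against 3.86% of the 1864, and in both libraries of both tables in 40. Across members, the shares of both tables had a Spearman rho of 0.606 in replicate 1 and 0.595 in replicate 2, over 101 points that share libraries and annotation.

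**Figure D5:**
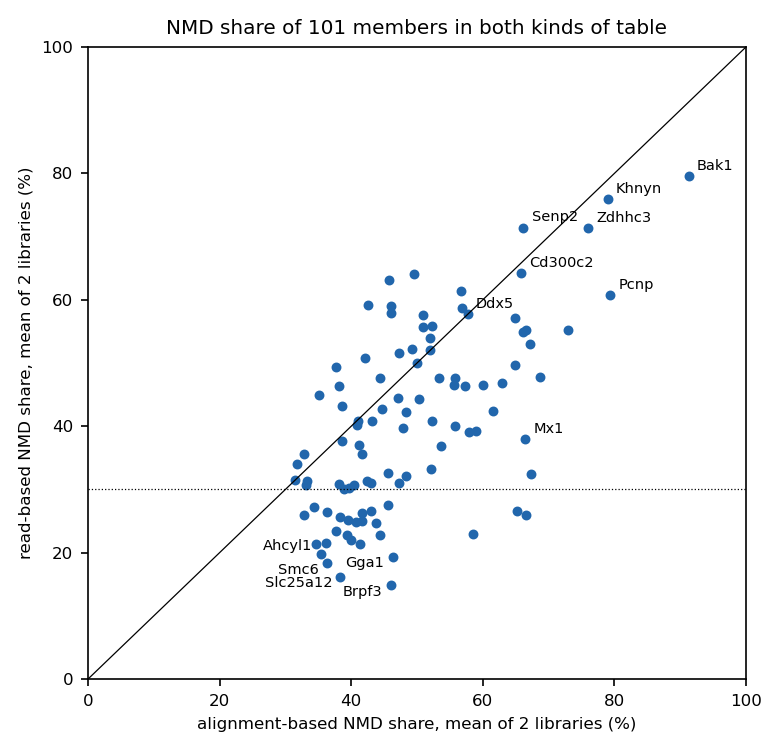
NMD share (percent, mean of both libraries) of the 101 members in the alignment-based table (x axis) and the read-based table (y axis), with a diagonal of equal share and a dotted line at 30%. Bak1, Khnyn, Senp2, Zdhhc3 and Cd300c2 are highest in the read-based table, while Brpf3, Slc25a12, Smc6, Gga1 and Ahcyl1 are lowest.

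The members with the highest read-based shares were Bak1 (69.1% and 90.1%), Khnyn (70.7% and 81.2%), Senp2 (66.4% and 76.4%), Zdhhc3 (67.3% and 75.4%) and Cd300c2 (68.5% and 60.1%). The lowest were Brpf3 (10.9% and 18.7%), Slc25a12 (15.5% and 16.8%), Smc6 (14.2% and 22.4%), Gga1 (16.5% and 22.1%) and Ahcyl1 (10.3% and 29.1%). For Ddx5 the tables gave close values, with read-based shares of 63.8% and 51.6%. For Mx1 they were far apart, as given above.

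Short and identical transcripts set the share of a few members. In Mroh1 an NMD transcript with 40 coding bases held 39.6% and 47.9% of TPM but 3.08% and 4.41% of expected counts. In Rrp7a the NMD share was 45.1% and 56.7% of TPM but 8.95% and 12.5% of counts, and in Nop58 34.3% and 49.9% of TPM but 6.00% and 8.42% of counts. By expected counts, 80 of 101 members held 30% or more in both libraries. In Gm38394 the NMD transcript has the same sequence as a coding transcript, 10156 bases long, so the equal shares given to each cannot be told apart by reads. The leading NMD transcript had 100 or more expected counts in both libraries in 89 members. Gm38394 is among these, with 3139 and 3383, so a high count does not show that reads were given to the right transcript. Its lower TPM credibility bound lay above the upper bound of the leading coding transcript in both libraries in 49. Another gene with a mean count of 10 or more overlapped 48 of 101 members, 13 of them on the same strand, and no source used here states the strand setting. The same holds for 45.3% of genes with an NMD transcript. Expected counts of 58 members were whole to within 0.005 in both libraries, against 1208 of the 1763 other genes.

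The NMD share differed between the libraries. It was higher in replicate 2 in 63 of 101 members, against 44.7% of the 1536 genes with NMD TPM above 0, and the median difference was 1.83 percentage points. The gap exceeded 10 points in 33 members, 21 of them higher in replicate 2, against 14.4% of those genes, and exceeded 20 points in 10. Since a share near 0 can move little, these percentages are not a like-for-like background for members. The widest gaps were in Gtpbp4, which had 53.9% in replicate 1 and 83.4% in replicate 2, Vti1b (63.9% and 35.3%), Ndufa3 (43.5% and 70.2%), Gbp6 and Tk2. All of these moved the same way in the read-based table. The values there were 28.1% and 67.4% for Gtpbp4, 70.8% and 57.4% for Vti1b and 47.4% and 69.9% for Ndufa3. Gbp6 had 30.2% and 58.2%, and Tk2 43.9% and 21.4%. RNA input, the share of structural RNA and the mitochondrial share also differ between the libraries, and their part was not tested.

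Total levels of members differed little between the libraries, which the rule's TPM minimum in both libraries partly fixes. All 101 had a mean count of 100 or more. Counts scaled by TMM factors (trimmed mean of M values) gave a median log2 ratio, replicate 2 over replicate 1, of -0.06, beside 0.02 for all 9668 genes at that count. They were higher in replicate 2 in 46 members and lower in 55. By TPM, 75 members were higher in replicate 2, but genes in general were shifted the same way. With a pseudocount of 0.1, the median log2 ratio of TPM was 0.19 for members and 0.26 for all genes at that count. The structural RNAs named above held less of the TPM of replicate 2, and their part in this was not tested. Members had to reach that minimum in each library, while all genes here had only to reach the mean count. The percentages of all genes beyond 2-fold are thus no like-for-like background for members, and nothing is read from them. Beyond 2-fold, 0 members were higher in replicate 2, against 1.68% of all genes, and 1 was lower, against 1.82%. That member was Mx1, with 49531 counts in replicate 1 and 20951 in replicate 2 and a log2 ratio of -1.04 (95% counting interval -1.07 to -1.02). Next came Oas1g at -0.97 (-1.05 to -0.90), Clasrp at -0.97 (-1.12 to -0.82), Ndufa3 at 0.96 (0.59 to 1.33) and Spcs2, a signal peptidase subunit gene, at 0.86. Of the 16 immune members, grouped by hand after their values were seen, 12 were lower in replicate 2, with a median of -0.20. Of 41 listed genes of TLR4 and inflammatory signalling, none of them members, 18 were higher in replicate 2. The share of all genes lower in replicate 2 was not counted, so nothing is read from the immune count. The intervals above cover counting error only, and a single pair of libraries gives no spread for the ratio.

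The machinery of the pathway was present in these libraries. Of 34 listed genes of NMD and the exon junction complex, 33 reached a TPM of 1 in each library, the exception being Gspt2. The helicase gene Upf1, which drives the decay, had a TPM of 11.6 in replicate 1 and 10.2 in replicate 2. Upf2, which links it to the junction complex, had 6.36 and 9.11. The kinase gene Smg1, which phosphorylates UPF1, was higher at 47.2 and 55.7, and the endonuclease gene Smg6 had 5.51 and 5.61. Eif4a3, the anchor of the junction complex, had 10.3 and 12.5. Of the 23 machinery genes that passed the level condition, 5 have an NMD transcript, beside 1864 of 5462 genes in all. None of the 5 reached 30% in both libraries, and with 6.06% of all such genes doing so, nothing is read from this. Smg5, an adaptor gene, had the highest share of these, 5.48% and 13.8%. RNA levels in the nucleoplasm give no measure of how active the pathway was.

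Of 40 genes listed for known regulation through NMD, 33 passed the level condition and 22 of these have an NMD transcript, with median shares of 12.3% and 11.6%. The members among them were Ddx5, Tardbp and Rpl12. Ccnl1, a cyclin gene linked to splicing, missed the rule at 31.8% and 29.7% and also had 61.2% and 65.6% in retained-intron transcripts. Eif4a2, a translation initiation helicase gene, had a share of 17.99% and 31.998%. Ptbp2, a splicing regulator gene, had 20.3% and 33.6%, and Tial1 20.6% and 28.9%. Genes such as Atf4, Atf3 and Gadd45b, whose messages are known NMD targets by other features, have no transcript of this type in the annotation and could not be members. Of 42 listed genes of TLR4 and inflammatory signalling, 41 were found, 38 passed the level condition, 11 of these have an NMD transcript, and none reached 30% in both libraries, which is likewise too few genes to read against 6.06%.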

How the data were processed

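The 2 libraries of 1 group were analysed, each with a gene table and 2 transcript tables on mm10 with GENCODE M21, per the file headers. The authors' deposited gene and transcript tables hold expected counts and TPM, with the percent of each gene's TPM per transcript, and a posterior mean TPM and credibility bounds (a signal unit here). The other deposited table, from the read files, holds estimated counts and TPM. No source used here states the tools, strand setting or trimming. Transcript types were read from the read-based table's names. Shares were recomputed from TPM. The rule's retained-intron limit was applied to either library. Rows that name no gene (1.10% and 0.267% of counts) were left out. Library sizes were adjusted with TMM factors (0.997 and 1.003) from edgeR 4.0.16. A prior count of 0.5 was added, and ratios have Clopper-Pearson intervals at 95%. DESeq2 1.42.0 size factors were an alternative. Levels are given per library in place of an SD over 2 values. Transcript structures came from the GENCODE M21 annotation, which held all 55536 gene IDs. Intervals cover counting error only, since reads that carry no molecular identifier need not be separate molecules. Member selection and ratios were tested on simulated data.

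Members, lists and named genes were chosen with earlier results of these data known. Named genes were the 10 members with the highest TPM (1 is not reported here) and the 10 with the highest share, 3 on either side of the threshold, the 5 highest and 5 lowest read-based shares, the 5 widest share gaps and 5 largest ratios, and members of the fixed lists. Other genes named, the roles and the sequences shown were chosen after their values were seen.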

Additional observations from a re-analysis of the deposited data

How the results depend on the processing

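Of 44 alternatives, 30 left the value within 1.5 times (counts) or within the spread between the libraries. The number of members was 196, 60 and 27 with a share limit of 20%, 40% and 50%, and 200 and 67 with a TPM limit of 1 and 10. With 1 library alone it ran from 138 without replicate 2 to 199 without replicate 1. By expected counts the rule gave 118 genes, 79 of them members, and by read-based TPM 99 genes, 62 of them members. Among alternatives chosen after seeing the data, leaving out genes that overlap another gene with counts left 53 members, requiring the retained-intron limit in both libraries gave 104, and leaving out NMD transcripts under 500 bases gave 96. The median share was 48.6% by expected counts and 40.03% by read-based TPM, and with 1 library 45.3% or 47.2%. The number of members led by an NMD transcript was 49 by expected counts, 46 by read-based TPM and 75 or 78 with 1 library. By read-based TPM, 40 members held 40% or more, and with 1 library 69 or 74 held 30%. The median difference of share was 5.002 points by read-based TPM. The median log2 ratio was 0.19 and 0.18 by TPM with pseudocounts of 0.1 and 1, where all genes shifted by 0.26 and 0.22. By read-based counts 2 members lay beyond 2-fold, Mx1 and Oas1g. The cause of these changes was not tested. No paired analysis was possible because there is 1 group. How depth limits the shares was not tested, and 89 of 101 members had 100 or more counts on the leading NMD transcript in both libraries.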
